A study of Mus musculus with 72 samples.

Results

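The genes described here encode enzymes and carriers of amino acid breakdown and the urea cycle in mouse liver. They were chosen by name, 39 genes in all, with earlier results of these data known, and grouped by the amino acid or step they act on. Of these, 35 were measured by a probe set that carried a single gene symbol, among 19938 genes tested. The other 4 were not analysed: the probe sets of Ass1 and Ahcy also carried a second symbol, and Gls2 and Sds were not matched. Liver RNA came from single-housed, randomly fed wild-type males of 4 inbred strains, 129P2/OlaHsd (129), C57BL/6J (B6J), C57BL/6NTac (B6N) and C3HeB/FeJ (C3H), on 72 arrays. In each strain, HFD livers came from mice fed high-fat diet for 21 days. The protocol text gives controls a low-fat diet of up to 21 days, although their treatment label reads none. There were 8 control and 7 HFD livers of 129, 8 and 7 of B6J, 8 and 8 of B6N, and 18 and 8 of C3H. All 129 mice and all HFD mice were 17 weeks old, while controls of the other strains were 15 to 17 weeks old, so age and diet cannot be fully told apart there.

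Amino acids in excess of need are broken down mainly in the liver, where transaminases and dehydrogenases remove the nitrogen and pathway-specific enzymes degrade the carbon skeletons. The ammonia set free enters the urea cycle, which begins in hepatocyte mitochondria and ends in the cytosol, and whose enzymes are most abundant in hepatocytes around the portal vein. Many of these genes are known to be induced by glucagon, glucocorticoids and dietary protein.

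Values are log2 probe set signals normalised by the authors. The array medians fell into 3 ranges, 6.46 to 6.65 in 129, 4.51 to 4.67 in B6J and B6N, and 3.10 to 3.28 in C3H, so levels were compared only within a strain and strains only by their HFD effects. In each of these 3 sets all 35 genes lay above the array median. The spacing of levels differed between the sets. The mean of 7 mature hepatocyte markers lay 7.09 above the array median in 129 controls. For C3H controls this distance was 8.73, and B6 controls lay between these values. Whether a log2 change has the same size in each set was not tested. The mean over strains and the F test of strain differences take it as equal, with 1 residual variance per gene. HFD effects are differences of group means on the log2 scale with standard error (SE), from 1 limma fit of all 72 arrays, and calls were made where the Benjamini-Hochberg adjusted p, over 19938 genes, was below 0.05. Some livers stood apart in these genes. Control 6 of 129 was the lowest of its 8 controls for 29 of the 35 genes, against 30.4% of all genes. The B6 arrays were divided into 2 parts by the sign of the first principal component of deviations from group means over all genes. The division was drawn from these same data, and each part held arrays of all 4 groups. Part 1 held 4 control and 5 HFD livers of B6J and 4 and 3 of B6N. Part 2 held 4 and 2 of B6J and 4 and 5 of B6N. Changes within the parts are given below in this order, without a test. The C3H arrays were not divided, although they also spread along their own first component. C3H HFD livers 1 to 4 lay between 0.184 and 0.230 on it, and HFD livers 5 to 8 between -0.455 and -0.0320. C3H controls lay between -0.373 and 0.268. Pancreatic acinar transcripts, of 15 digestive enzyme genes, varied in mean signal up to 78.6-fold between B6J controls and were on average higher on HFD in B6N (6.61 ± 0.95, SD, n = 8, against 5.33 ± 0.78, n = 8). Mature hepatocyte markers (7 genes) averaged 11.79 ± 0.20 in C3H HFD livers (n = 8) and 11.91 ± 0.10 in C3H controls (n = 18). In bulk RNA, fewer cells of a type and less RNA per cell cannot be told apart. Beyond the fits named below, the part of these values in the results was not tested.

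**Figure D1:**
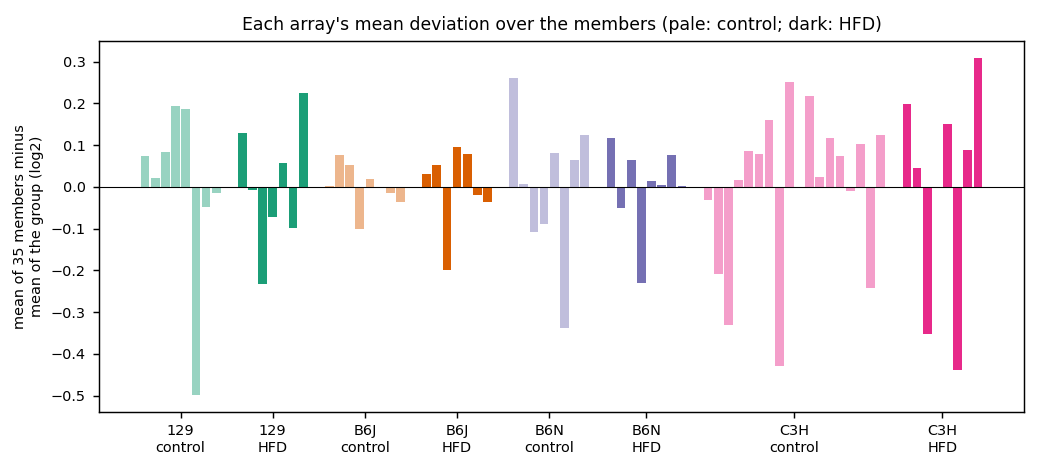
Mean over the 35 genes of each array's deviation from its group mean (y axis, log2), 1 bar per array, by group (x axis; pale bars are controls, dark bars HFD livers). Control 6 of 129 lies lowest, 0.498 below its group.

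In the mean HFD effect over the 4 strains, 10 of the 35 genes fell and none rose. They were Cps1, Asl and Arg1 of the urea cycle, Prodh and Oat of proline and ornithine metabolism, Hal and Amdhd1 of histidine breakdown, Tat and Ddc, which act on aromatic amino acids, and Gnmt of the methionine cycle. The background was 1.14% of all genes called lower and 2.02% called higher, and 2.26% called lower among the 9969 genes above the median level when those alone were fitted, a fit in which 12 members were called lower. Without adjustment, limma gave p under 0.05 for 17 genes with a lower and 3 with a higher mean. The median change of the 35 genes was -0.11 and that of all genes 0.00158. The fall was small for most members: only Ddc changed by more than 1.34-fold, and 27 of 35 had a mean change below 0. In 17 of 35 genes (48.6%) the change was below 0 in every strain, against 8.44% of all genes, a count with no test. As the list was chosen with earlier results of these data known, its shares against the background are a description. When arrays rich in acinar transcripts were left out, 7 genes were called lower (Cps1, Asl, Prodh, Hal, Hgd, Ddc and Gnmt). That fit kept 4 control and 3 HFD arrays of 129 and 3 and 3 of B6J. It kept 8 and 5 of B6N and 12 and 7 of C3H. Its count over all genes is not given here, and whether calls were lost in it through fewer arrays was not tested. With the acinar level as a covariate 10 members were called lower, against 212 of all 19938 genes.

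**Figure D2:**
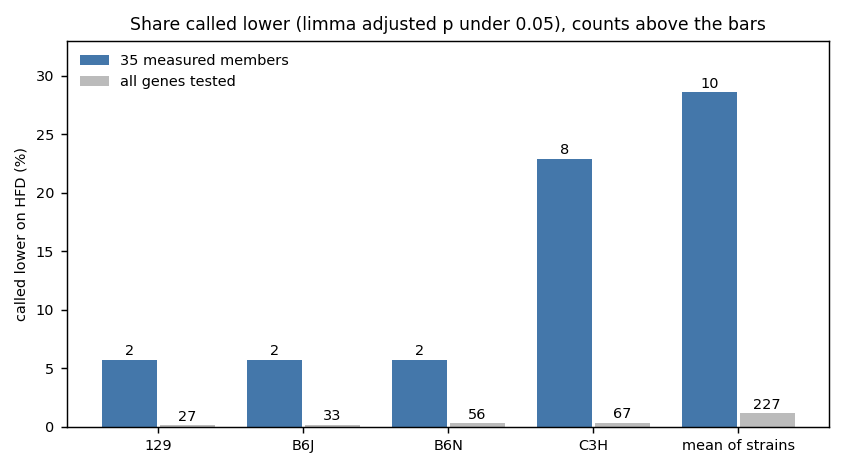
Share of genes called lower on HFD (y axis, percent; limma adjusted p under 0.05) in each strain and in the mean of the strains (x axis), for the 35 measured genes (blue) and all 19938 genes (grey), with counts above the bars. The members' shares were 5.71% in 129, B6J and B6N, 22.9% in C3H and 28.6% in the mean effect.

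Called genes were few in single strains. In 129, Oat and Ddc fell (2 of 35; background 0.135%). In B6J, Hal and Ddc fell (2 of 35; background 0.166%), as they did in B6N (2 of 35; background 0.281%). In C3H 8 of 35 fell (background 0.336%): Cps1, Arg1, Prodh, Oat, Hal, Hgd, Ddc and Gnmt. Limma called 0 of the 35 higher in any strain (backgrounds 0.441%, 0.13%, 0.637% and 0.517% in 129, B6J, B6N and C3H), and at unadjusted p under 0.05 it gave 0, 0, 2 and 0. The median change of the members was -0.08, -0.10, -0.06 and -0.17 in the same order, with medians over all genes between -0.00262 and 0.00912. These medians moved by over 1.5 times in some settings: in C3H to -0.02 with the replicate block, -0.09 without acinar-rich arrays and -0.11 with quantile normalisation, in 129 to -0.16 without acinar-rich arrays and -0.12 with array weights, and in B6N to -0.03 with the acinar level as a covariate. Leaving out 1 array moved them as far in 129 (-0.05 without control 4 or HFD liver 3, -0.13 without control 6), B6J (-0.06 without HFD liver 3), B6N (-0.02 without control 1, control 5 or HFD liver 2, -0.03 without HFD liver 4, -0.12 without control 6) and C3H (-0.09 without HFD liver 6). All of these values were below 0. In the fit of genes above the median level alone, 2, 2, 3 and 9 members fell, with backgrounds of 0.241%, 0.321%, 0.582% and 0.802%. HFD and control arrays did not overlap, with HFD lower, for 1 member in 129 (Ddc), 2 in B6J (Prodh and Ddc), 1 in B6N (Ddc) and 0 in C3H (backgrounds 0.0752%, 0.201%, 0.115% and 0.01%), and with HFD higher for 0 members in each strain (backgrounds 0.176%, 0.145%, 0.241% and 0.0451%). With each strain fitted alone, 1 gene was called in 129 (Ddc), Hal and Ddc in each B6 strain, and only Arg1 and Ddc in C3H. Of all 19938 genes, 19, 53, 59 and 31 then fell in 129, B6J, B6N and C3H. The number called in a strain does not show that the strains differ, which the F test of the difference addresses below.

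**Figure D3:**
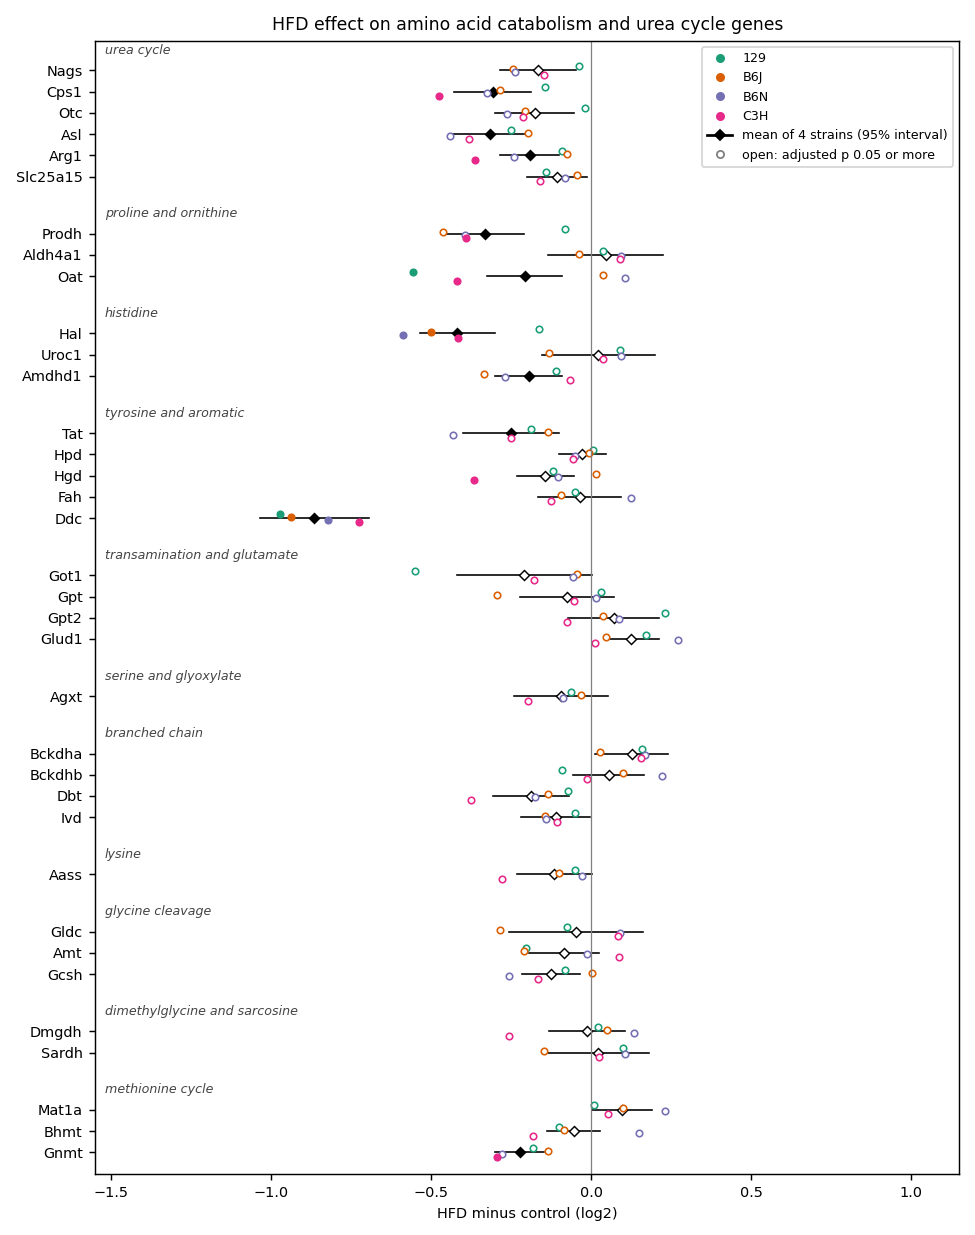
HFD minus control (x axis, log2) for each of the 35 genes (y axis), grouped by the amino acid or step. Circles are the 4 strains and diamonds the mean of the strains with its 95% interval; filled symbols passed the limma test. Ddc lies farthest to the left in all strains, and Oat is lower in 129 and C3H but near 0 in B6J and B6N.

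Of the 6 measured genes of the urea cycle, 3 fell in the mean effect, and all 6 had a mean change below 0 (-0.32 to -0.11). Cps1, the mitochondrial carbamoyl phosphate synthetase that commits ammonia to the cycle, fell 1.24-fold (95% interval 1.14 to 1.35) in the mean effect, with an adjusted p of 0.00027. Levels here and below are on the log2 scale. The median of 129 controls was 13.67 (range 13.44 to 13.78) and that of 129 HFD livers 13.54 (range 13.31 to 13.66). In the B6 strains, B6J control arrays lay between 12.68 and 13.002 (median 12.94), and the HFD arrays between 12.25 and 12.83 (median 12.67). The B6N controls ran from 12.19 to 13.001 with a median of 12.59, and B6N HFD livers from 11.94 to 12.49 with a median of 12.31. The groups overlapped in these strains and HFD medians were lower. Values in C3H controls were 11.28 to 12.12 (median 11.96) and in C3H HFD livers 10.73 to 11.91 (median 11.35). Only there was the change called (-0.48 ± 0.10, adjusted p = 0.0049), with 3 of 8 HFD livers below every control, while the changes in 129, B6J and B6N were -0.15, -0.29 and -0.33. The C3H call was lost with C3H fitted alone (adjusted p = 0.13) or with the replicate block (0.053).

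Asl, the argininosuccinate lyase, fell 1.25-fold (95% interval 1.14 to 1.36) in the mean effect (adjusted p = 0.00039) and was not called in any single strain. The median of 129 controls was 11.47 (range 10.52 to 11.90) and that of 129 HFD livers 11.24 (range 10.71 to 11.37). The B6J control arrays lay between 10.60 and 10.89 (median 10.73), and the HFD arrays between 10.36 and 10.70 (median 10.55), so that 5 of 7 lay below every control. The B6N controls ran from 10.30 to 11.10 with a median of 10.77, and B6N HFD livers from 9.86 to 10.61 with a median of 10.32. Values in C3H controls were 9.01 to 10.09 (median 9.66) and in C3H HFD livers 8.78 to 9.78 (median 9.26). The changes were -0.25, -0.20, -0.44 and -0.38 in 129, B6J, B6N and C3H, on the same side of 0 throughout, with overlapping groups.

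Arg1, the arginase that releases urea, fell 1.14-fold (95% interval 1.07 to 1.22) in the mean effect (adjusted p = 0.0051) and 1.29-fold (95% interval 1.153 to 1.44) in C3H (adjusted p = 0.0047). C3H controls ran from 10.51 to 11.09 with a median of 10.85, and C3H HFD livers from 10.07 to 10.62 with a median of 10.52, with 3 of 8 HFD livers below every control. The values in 129 controls were 12.40 to 12.85 (median 12.58) and in 129 HFD livers 12.21 to 12.72 (median 12.56). The median of B6J controls was 11.60 (range 11.37 to 11.82) and that of B6J HFD livers 11.45 (range 11.20 to 12.001). The B6N control arrays lay between 11.50 and 11.85 (median 11.61), and the HFD arrays between 11.06 and 11.64 (median 11.36). Outside C3H the changes were smaller, at -0.09, -0.07 and -0.24, and not called, and the groups overlapped. The mean call was lost without acinar-rich arrays (adjusted p = 0.2) and the C3H call with array weights (0.07). The other 3 genes were not called: Nags, which makes the activator of Cps1 (-0.17 ± 0.06, adjusted p = 0.14), Otc, which forms citrulline (-0.18 ± 0.06, 0.13), and Slc25a15, the mitochondrial ornithine carrier (-0.11 ± 0.05, 0.32). With array weights Nags and Otc were called lower in the mean effect, as was Nags with quantile normalisation.

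Of the 3 genes of proline and ornithine breakdown, 2 fell in the mean effect. Prodh, the proline dehydrogenase of the first step, fell 1.26-fold (95% interval 1.16 to 1.37) in the mean effect, with an adjusted p of 7.7e-05. Its RefSeq promoter is shown because its mean change came next after those of Ddc and Hal. It lies on the - strand at GRCm38.p6 chr16:18089191-18089440, 250 bases before the gene start, and holds none of the motifs searched:
Prodh: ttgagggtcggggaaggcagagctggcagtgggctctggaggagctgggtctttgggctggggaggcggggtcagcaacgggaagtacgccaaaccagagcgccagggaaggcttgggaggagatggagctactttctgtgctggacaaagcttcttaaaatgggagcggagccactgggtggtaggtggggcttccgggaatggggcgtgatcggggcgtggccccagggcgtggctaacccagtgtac
B6J control arrays lay between 9.59 and 9.92 (median 9.78), and the HFD arrays between 8.56 and 9.56 (median 9.43). These groups did not overlap (background of genes lower without overlap in B6J 0.201%), but the change of -0.46 ± 0.13 was not called (adjusted p = 0.13) and HFD liver 5 was far below the next (8.56 against 9.14). The B6N controls ran from 9.35 to 9.89 with a median of 9.76, and B6N HFD livers from 8.92 to 9.55 with a median of 9.33, with 6 of 8 HFD livers below every control and a change of -0.40 ± 0.12 (adjusted p = 0.16). Values in C3H controls were 8.09 to 9.29 (median 8.71) and in C3H HFD livers 7.61 to 8.79 (median 8.38). That change was called (-0.39 ± 0.11, adjusted p = 0.046), though the call was lost in 27 of 72 fits that left out 1 array and in 7 of 12 other settings (adjusted p up to 0.35). The median of 129 controls was 10.68 (range 10.20 to 11.03) and that of 129 HFD livers 10.63 (range 10.41 to 10.90), a change of -0.08 that was not called. Within the B6 parts the change was -0.48 and -0.30 in B6J and -0.29 and -0.46 in B6N. The next enzyme of the same route, Aldh4a1, had a mean change of 0.04 ± 0.09 (adjusted p = 0.95).

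Oat, the mitochondrial ornithine aminotransferase, fell in 129 and C3H and was close to its controls in both B6 strains. 129 controls ran from 12.61 to 13.36 with a median of 12.98, and 129 HFD livers from 11.91 to 12.96 with a median of 12.29. The change was 1.47-fold (95% interval 1.24 to 1.75) lower (adjusted p = 0.0092), with 4 of 7 HFD livers below every control. C3H control arrays lay between 9.21 and 10.38 (median 9.95), and the HFD arrays between 8.85 and 9.90 (median 9.56), a change of -0.42 ± 0.10 (adjusted p = 0.018). The values in B6J controls were 11.47 to 11.89 (median 11.60) and in B6J HFD livers 11.49 to 11.95 (median 11.68), and the median of B6N controls was 11.48 (range 11.35 to 11.77) and that of B6N HFD livers 11.58 (range 11.35 to 11.87). Those groups overlapped, with changes of 0.04 ± 0.12 and 0.11 ± 0.12. The 129 call was lost without HFD liver 3 (log2 change -0.47, adjusted p = 0.073), with 129 fitted alone (0.16) and without acinar-rich arrays (0.3). The C3H call was lost without HFD liver 2 or 3 (-0.39 and -0.32, adjusted p = 0.062 and 0.15) and in 4 of 12 other settings (quantile normalisation, array weights, C3H fitted alone and the replicate block; 0.072 to 0.35). The call in the mean effect (-0.21 ± 0.06, adjusted p = 0.028) was lost without 129 control 4 or 129 HFD liver 3 (adjusted p = 0.05 and 0.061) and without acinar-rich arrays (0.25).

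Whether HFD effects differed between strains was tested for every gene with a moderated F test, which called 25 of 19938 genes (0.125%) and 0 of the 35 members. At an unadjusted p under 0.05 limma gave 3 members: Oat (adjusted p = 0.094), Hgd and Bhmt (both adjusted p = 1). The difference of the Oat effect was -0.66 ± 0.17 between 129 and B6N (adjusted p = 0.19) and 0.52 ± 0.16 between B6N and C3H (adjusted p = 0.63), where the sign is the first strain minus the second. Oat was called by the F test with quantile normalisation, with array weights, with the first component as a covariate, and without 129 HFD liver 7 or C3H control 17. A strain difference of Oat did not pass the threshold in the fit of all arrays.

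**Figure D4:**
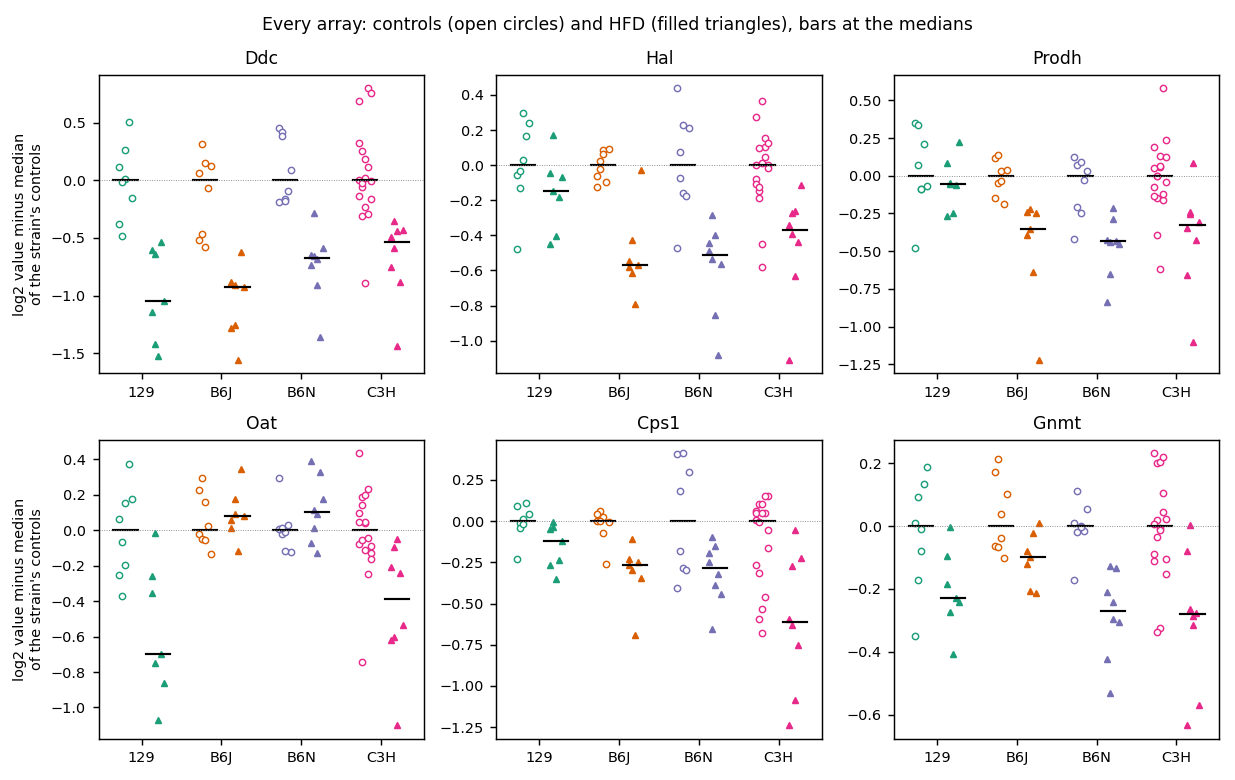
Every array's log2 value minus the median of its strain's controls (y axis) for Ddc, Hal, Prodh, Oat, Cps1 and Gnmt, by strain (x axis). Open circles are controls, filled triangles HFD livers and bars the group medians. Ddc HFD livers lie below every control in 129, B6J and B6N, and Oat triangles lie low in 129 and C3H but not in the B6 strains.

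Histidine is degraded first by Hal, the histidine ammonia-lyase, which fell in 3 strains and in the mean. It fell 1.34-fold (95% interval 1.23 to 1.45) in the mean effect (adjusted p = 1.3e-07), 1.42-fold (95% interval 1.196 to 1.68) in B6J (0.039), 1.505-fold (95% interval 1.28 to 1.77) in B6N (0.0012) and 1.34-fold (95% interval 1.16 to 1.53) in C3H (0.015). Its RefSeq promoter is shown as that of the member with the most calls after Ddc. It covers 250 bases before the gene start on the + strand, GRCm38.p6 chr10:93488518-93488767, and capitals mark TATAAA read on the opposite strand, 28 bases before the start:
Hal: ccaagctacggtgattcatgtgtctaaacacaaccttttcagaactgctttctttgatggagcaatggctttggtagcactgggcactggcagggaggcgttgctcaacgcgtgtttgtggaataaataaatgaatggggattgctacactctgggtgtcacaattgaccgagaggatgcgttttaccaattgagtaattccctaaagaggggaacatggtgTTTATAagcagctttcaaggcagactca
B6J control arrays lay between 11.24 and 11.46 (median 11.37), and the HFD arrays between 10.58 and 11.34 (median 10.80), so that 6 of 7 HFD livers lay below every control. The B6N controls ran from 10.81 to 11.72 with a median of 11.28, and B6N HFD livers from 10.20 to 10.99 with a median of 10.77, with 5 of 8 below every control. Values in C3H controls were 9.02 to 9.97 (median 9.60) and in C3H HFD livers 8.49 to 9.49 (median 9.23). HFD livers were thus low in these 3 strains with some overlap. The median of 129 controls was 12.14 (range 11.66 to 12.43) and that of 129 HFD livers 11.99 (range 11.69 to 12.31), and the change of -0.16 ± 0.12 was not called (adjusted p = 1). Within the B6 parts, Hal changed by -0.47 and -0.58 in B6J and by -0.48 and -0.66 in B6N. The B6J call was lost with median centring (adjusted p = 0.1), with the replicate block (0.084), without acinar-rich arrays (1) and when any 1 of the B6J arrays except control 6 or HFD liver 5 was left out (up to 0.17), and the C3H call without HFD liver 3 or 6 (-0.39 and -0.32, adjusted p = 0.051 and 0.11) and in 5 of 12 other settings (0.069 to 0.25).

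Amdhd1, the imidazolonepropionase of the third step, fell 1.146-fold (95% interval 1.07 to 1.23) in the mean effect (adjusted p = 0.016) and in no single strain. B6J controls ran from 10.15 to 10.47 with a median of 10.32, and B6J HFD livers from 9.73 to 10.33 with a median of 9.97, with 6 of 7 HFD livers below every control but no call (-0.34 ± 0.11, adjusted p = 0.32). The values in B6N controls were 9.82 to 10.59 (median 10.32) and in B6N HFD livers 9.59 to 10.21 (median 10.07). 129 control arrays lay between 10.68 and 11.55 (median 11.27), and the HFD arrays between 10.84 and 11.46 (median 11.12). The median of C3H controls was 9.06 (range 8.72 to 9.41) and that of C3H HFD livers 9.05 (range 8.58 to 9.45). The mean call was lost without acinar-rich arrays (adjusted p = 0.68). Uroc1, the urocanase between these steps, had a mean change of 0.02 ± 0.09 (adjusted p = 0.98), so that of 3 histidine genes the first and the third fell and the second was not called.

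Ddc, which decarboxylates aromatic amino acids to amines, changed most among the members and was called in every strain. It fell 1.82-fold (95% interval 1.62 to 2.05) in the mean effect (adjusted p = 1.6e-12). RefSeq lists 2 starts of the gene, both on the - strand, and the 250 bases before each are printed because Ddc changed most. Capitals mark TATAAA read on the opposite strand, 68 bases before start 1, and the second holds no match to the motifs searched. They are GRCm38.p6 chr11:11898145-11898394 and chr11:11890409-11890658:
Ddc start 1: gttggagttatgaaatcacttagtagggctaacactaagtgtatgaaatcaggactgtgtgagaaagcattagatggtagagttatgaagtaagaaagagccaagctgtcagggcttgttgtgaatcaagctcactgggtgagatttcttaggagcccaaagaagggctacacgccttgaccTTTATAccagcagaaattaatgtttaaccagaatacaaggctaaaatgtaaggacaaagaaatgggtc
Ddc start 2: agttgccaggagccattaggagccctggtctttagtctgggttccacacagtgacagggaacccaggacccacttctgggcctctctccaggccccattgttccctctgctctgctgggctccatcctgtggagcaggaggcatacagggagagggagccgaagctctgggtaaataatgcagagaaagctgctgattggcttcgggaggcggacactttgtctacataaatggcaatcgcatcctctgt
129 controls ran from 10.06 to 11.04 with a median of 10.54, and 129 HFD livers from 9.01 to 10.01 with a median of 9.49. The values in B6J controls were 8.35 to 9.25 (median 8.94) and in B6J HFD livers 7.38 to 8.31 (median 8.01). The median of B6N controls was 8.34 (range 8.15 to 8.79) and that of B6N HFD livers 7.67 (range 6.98 to 8.05). In these strains every HFD liver lay below every control (backgrounds 0.0752%, 0.201% and 0.115%). C3H control arrays lay between 6.87 and 8.56 (median 7.76), and the HFD arrays between 6.33 and 7.41 (median 7.22), and the groups overlapped, with 1 of 8 HFD livers below every control. The fold decreases were 1.96-fold (95% interval 1.53 to 2.51) in 129 (adjusted p = 0.00089), 1.92-fold (95% interval 1.498 to 2.46) in B6J (0.0016), 1.77-fold (95% interval 1.39 to 2.25) in B6N (0.0023) and 1.66-fold (95% interval 1.35 to 2.03) in C3H (0.0014). The intervals of the strains overlapped, and the F test of a difference gave an adjusted p of 1. Every one of the 72 fits that left out 1 array kept the call in each strain. Within the B6 parts Ddc changed by -1.09 and -0.91 in B6J and by -0.72 and -0.86 in B6N. The call was lost without acinar-rich arrays in 129 and B6J, where 3 or 4 arrays a group were left and the changes were -0.97 and -0.85 (adjusted p = 0.3 and 1), and with array weights in C3H (-0.63, 0.15).

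Of the 4 genes that degrade tyrosine itself, Tat alone passed the test in the mean effect, and narrowly. Tat, the tyrosine aminotransferase of the first step, fell 1.19-fold (95% interval 1.07 to 1.32) in the mean effect at an adjusted p of 0.047, a call that was lost in 46 of the 72 fits that left out 1 array and with median centring, quantile normalisation, the replicate block or no acinar-rich arrays (0.053 to 0.42). Its values in 129 controls were 12.67 to 13.96 (median 13.53) and in 129 HFD livers 12.99 to 13.78 (median 13.31). The median of B6J controls was 12.58 (range 12.44 to 12.80) and that of B6J HFD livers 12.47 (range 11.91 to 12.77). The B6N control arrays lay between 11.99 and 12.91 (median 12.55), and the HFD arrays between 11.74 and 12.29 (median 12.15). C3H controls ran from 10.76 to 12.17 with a median of 11.74, and C3H HFD livers from 10.81 to 11.82 with a median of 11.49. Tat groups overlapped in every strain, and no single strain was called. Hgd, the homogentisate dioxygenase, fell 1.29-fold (95% interval 1.16 to 1.44) in C3H (adjusted p = 0.0027), where the median of C3H controls was 10.65 (range 9.65 to 10.87) and that of C3H HFD livers 10.22 (range 9.79 to 10.53). No C3H HFD liver lay below every control, as 1 control (9.65) was lower than all of them, and the call was lost with C3H fitted alone (0.21). 129 control arrays lay between 13.12 and 13.42 (median 13.28), and the HFD arrays between 12.92 and 13.37 (median 13.15). The B6J controls ran from 11.59 to 11.84 with a median of 11.66, and B6J HFD livers from 11.54 to 11.82 with a median of 11.75, and the values in B6N controls were 11.55 to 11.82 (median 11.70) and in B6N HFD livers 11.43 to 11.77 (median 11.56). Changes of Hgd in these strains were -0.12, 0.02 and -0.10 and not called. In the mean effect Hgd was called lower with array weights, with the replicate block and in the fit of genes above the median level alone. Hpd, which makes homogentisate, and Fah, the last enzyme of the route, had mean changes of -0.03 ± 0.04 and -0.04 ± 0.06 (adjusted p = 0.91 and 0.94), and the interval of Hpd reached from -0.10 to 0.05.

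Transamination and glutamate genes were not called in any strain or in the mean. The cytosolic aspartate aminotransferase Got1 had a mean change of -0.21 ± 0.11 (adjusted p = 0.46) with its lowest change in 129 (-0.55 ± 0.22), and the largest residual SD of the members (0.446). With array weights Got1 was called lower in 129. The alanine aminotransferases Gpt and Gpt2 changed by -0.08 ± 0.07 and 0.07 ± 0.07. Glud1, the glutamate dehydrogenase that releases ammonia, had a positive change (0.12 ± 0.04, adjusted p = 0.12) that was called higher with quantile normalisation, array weights or the replicate block. Agxt, which detoxifies glyoxylate by transamination, changed by -0.10 ± 0.07.

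Genes of branched chain amino acids and lysine were not called in the mean. Of the branched chain ketoacid dehydrogenase subunits, Bckdha and Bckdhb changed by 0.13 ± 0.06 and 0.05 ± 0.06 and Dbt, the transacylase core, by -0.19 ± 0.06 (adjusted p = 0.35, 0.87 and 0.062). Dbt was lowest in C3H (-0.38 ± 0.10, adjusted p = 0.054), where 4 of 8 HFD livers lay below every control. It was called lower there with quantile normalisation, with array weights and in the fit of genes above the median level alone. These settings also called it lower in the mean effect. With the acinar level as a covariate Dbt was called lower in C3H and not in the mean effect. Ivd, of leucine breakdown, changed by -0.11 ± 0.05 and Aass, which starts lysine breakdown, by -0.12 ± 0.06.

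The glycine cleavage genes Gldc, Amt and Gcsh changed by -0.05 ± 0.10, -0.09 ± 0.06 and -0.13 ± 0.05, and the mitochondrial demethylases Dmgdh and Sardh by -0.01 ± 0.06 and 0.02 ± 0.08, with no call in any strain. With array weights Amt was called lower in 129 and Gcsh in the mean effect. Gnmt, which consumes S-adenosylmethionine by methylating glycine, fell 1.17-fold (95% interval 1.11 to 1.23) in the mean effect (adjusted p = 2.0e-05) and 1.23-fold (95% interval 1.120 to 1.34) in C3H (0.0057). Its residual SD (0.15) was lower than that of any member but Hpd. Values in C3H controls were 10.73 to 11.30 (median 11.07) and in C3H HFD livers 10.44 to 11.07 (median 10.79). The B6N controls ran from 11.96 to 12.24 with a median of 12.13, and B6N HFD livers from 11.60 to 12.004 with a median of 11.86, with 6 of 8 HFD livers below every control (-0.28 ± 0.08, adjusted p = 0.059). The B6J control arrays lay between 11.91 and 12.22 (median 12.01), and the HFD arrays between 11.79 and 12.02 (median 11.91). The median of 129 controls was 13.33 (range 12.98 to 13.52) and that of 129 HFD livers 13.10 (range 12.92 to 13.32). HFD medians were lower in every strain and the groups overlapped. The C3H call was lost in 5 of 12 other settings (adjusted p 0.076 to 0.26). The other measured genes of the methionine cycle were not called: Mat1a, which makes S-adenosylmethionine, changed by 0.10 ± 0.05, and Bhmt, which remethylates homocysteine with betaine, by -0.06 ± 0.04. A second bright Bhmt probe set gave a mean change of -0.06, and a dim one 0.0092.

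Promoter sequences from RefSeq were found for 29 of the 35 measured genes, and for 7 of the 10 that fell. The 250 bases before each start were searched on both strands for 7 motifs. Members were counted by gene, with a match in any of their promoters (32 for the 29 genes), and the background by promoter. The shares of members and of all promoters below thus have different units. The TATA box, searched as TATAAA, was in 3 of 29 members (10.3%; Ddc, Hal and Hgd) and in 12.4% of all 32851 promoters. The half-site of the cAMP response element, searched as TGACG, was in 1 member (3.45%; Aass) against 17.8% of all promoters. The whole element, searched as TGACGTCA and holding the half-site, was in 0 of 29 members against 1.55% of all. The joint C/EBP and ATF element, searched as TGATGCAA, was in 1 member (Got1) against 0.791% of all. The C/EBP element, searched as TTGCGCAA, was in 0 members against 0.164% of all. The glucocorticoid receptor element and the direct repeat 1 element were in 0 members each, against 0.00913% and 0.0335% of all promoters. These counts describe letters in the window and not binding.

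Of 80 further genes of amino acid handling 73 were measured, and 9 fell and 2 rose in the mean effect (backgrounds 1.14% and 2.02%), with a median change of -0.00121. The count that rose is near its background. Of those that fell, 4 belong to cysteine and tryptophan metabolism: Csad of taurine synthesis (-1.10 ± 0.11), Acmsd of the kynurenine route (-0.99 ± 0.09), the cystathionine lyase gene Cth (-0.53 ± 0.06) and Afmid (-0.27 ± 0.07). Asns, the asparagine synthetase, changed by -0.47 ± 0.13, Aldh1l1, a folate enzyme, by -0.35 ± 0.08, Gcat, of threonine breakdown, by -0.27 ± 0.06 and Acadsb, of isoleucine breakdown, by -0.27 ± 0.07. The remaining gene that fell was Qdpr, which recycles the cofactor of aromatic amino acid hydroxylases. The 2 that rose were Bckdk, the kinase that inhibits the branched chain dehydrogenase, and Prodh2, of hydroxyproline breakdown. In single strains 1, 1, 4 and 4 of the 73 fell in 129, B6J, B6N and C3H (backgrounds 0.135%, 0.166%, 0.281% and 0.336%) and 0 rose by limma (10, 8, 15 and 16 with unadjusted p under 0.05 in either direction). None of the 8 further genes of the urea cycle and ammonia handling, among them Glul and Arg2, and none of 8 amino acid transporters was called in the mean effect by limma (3 and 1 with unadjusted p under 0.05).

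A list of 18 genes held hormone receptors, transcription factors and cofactors of liver metabolism and genes that respond to glucocorticoids or amino acid stress. Of these, 1 rose and 1 fell in the mean effect (backgrounds 2.02% and 1.14%), and nothing is read from these counts about the list. Creb3l3, a hepatocyte factor of the CREB family, rose by 0.23 ± 0.06 (adjusted p = 0.0079), and Atf4, the factor of the amino acid response, fell (log2 change -0.20 ± 0.06, adjusted p = 0.031). Neither was called in a single strain.

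Hepatocyte zones and other cell types were followed with marker lists. In the mean effect the backgrounds were 2.02% of all genes higher and 1.14% lower. Of 9 measured periportal genes, without members, 1 rose and 2 fell in the mean effect (median 0.03), and of 12 pericentral genes 1 rose (median 0.01). Of 11 macrophage and Kupffer cell markers 6 rose in the mean effect and 6 in 129 (background 0.441% higher). Their mean level in 129 was 9.22 ± 0.42 on HFD (SD, n = 7) and 8.65 ± 0.15 in controls (n = 8). Of 5 endothelial and 5 lymphocyte markers 1 each rose in the mean effect, and nothing is read from these single calls or those of the zones. Limma called 0 of 7 hepatocyte, 15 acinar, 7 stellate cell, 4 bile duct, 4 adipocyte and 1 red blood cell markers in the mean effect (2, 0, 0, 0, 0 and 0 with unadjusted p under 0.05). The part of these lists in the changes above was not tested.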

How the data were processed

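The authors deposited log2 expression values per probe set for 72 arrays. The submitters' processing notes name RMA, which removes background, equalises array distributions and combines probes, and Affymetrix Expression Console 1.1. Whether the 3 sets were normalised together is not given in the sources used here. Of 35556 probe sets, 21789 carried 1 gene symbol, 1621 several and 12146 were not listed; symbols were updated through Entrez identifiers (21698 matched). Where a gene had several probe sets, the brightest on average was used. Columns were mapped by accession, and no 2 were identical.

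A model of 8 group means was fitted per gene with limma 3.58.1 under R 4.3.3 (64 residual degrees of freedom), with two-sided moderated tests and Benjamini-Hochberg adjustment. The code of the fit was tested on simulated data with planted changes and independent noise for each gene and array. Such data lack the deviations that genes share within the real arrays, so that test does not bear on the calls given here. Members and lists were chosen with earlier results of these data known; the tests, the rule for named genes and 10 alternatives were then set, and other alternatives were added after seeing the data. Array values by group are given for members called in a strain or by the F test, and for up to 6 called in the mean alone; up to 8 other pathway genes and up to 4 regulatory and response genes are given by size of the mean change. Same-numbered control and HFD livers deviated together in B6N (r at least 0.101 in 8 of 8 pairs). Pairs with r over 0.1 numbered 6 of 7 in 129, 5 of 7 in B6J and 1 of 8 in C3H. The 2 parts of the B6 arrays also ran with the numbers. Part 1 held controls 1 to 4 of both strains, HFD livers 1 to 5 of B6J and HFD livers 1 to 3 of B6N. Most same-numbered B6 livers thus shared a part, and the share of the parts in these correlations was not tested. The labels give no pairing, and the block changed no B6N call. The mice were housed singly, and the labels do not say whether they shared litters or whether any 2 arrays shared a mouse, so the p-values reflect only the spread among these samples. Precision is limited by how many arrays there are.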

Additional observations from a re-analysis of the deposited data

Results flagged for a closer look

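Among 11 members and the 7 groups of 7 or 8 arrays, 77 sets of values were screened for 1 array far from the rest, by its gap to the nearest array as a share of the group's range. Chance alone marks about 1 in 20, and 8 were marked. Cps1 was low in 129 control 6 (share 0.562; 13.44 against 13.63 in the next array), in B6J control 4 (0.591; 12.68 against 12.87) and in B6J HFD liver 3 (0.592; 12.25 against 12.59). Amdhd1 was low in 129 control 6 (0.552; 10.68 against 11.16) and in B6N HFD liver 4 (0.533; 9.59 against 9.92). Prodh was low in B6J HFD liver 5 (0.582; 8.56 against 9.14) and Gnmt in B6N control 6 (0.534; 11.96 against 12.11). Oat was high in B6N control 1 (0.635; 11.77 against 11.51). No pairwise difference of HFD effects between strains passed the limma test for a member.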

How the results depend on the processing

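Of 129 counts of called members over 12 other settings, 108 stayed within 1.5 times the reported count, and of 278 changes of called members 238 kept their call, 40 lost it and 0 changed sign. Array weights gave 6 genes lower in 129, 5 in B6N and 3 in C3H, with 1 higher in B6N and in the mean (Glud1) and 1 gene (Oat) called by the F test. Of all 19938 genes, 219, 92 and 37 then fell in 129, B6N and C3H, against 27, 56 and 67 in the main fit. In B6N 153 and in the mean 485 rose, and 71 passed the F test, against 127, 403 and 25. Quantile normalisation gave 4 lower in B6N and 5 in C3H, 1 higher in the mean and 1 by the F test. Of all genes, 67 and 107 then fell in B6N and C3H, 368 rose in the mean and 31 passed the F test. Without acinar-rich arrays 0 were called lower in 129, 0 in B6J and 5 in C3H; by limma 0 and 5 genes of all 19938 then fell in 129 and B6J. With strains fitted alone 1 was called lower in 129 and 2 in C3H (19 and 31 of all genes). With median centring 1 was called lower in B6J (31 of all genes). The replicate block, in which C3H controls without a same-numbered HFD liver give no information on diet, left 1 lower in B6J and 3 in C3H and gave 1 higher in the mean. Of all genes, 35 and 79 then fell in B6J and C3H and 441 rose in the mean. The labels do not say that numbers pair the livers in any strain. The first component within each set as a covariate, added after seeing the data, gave 4 lower in B6N and 1 by the F test. Counts over all genes are not given for that fit, so nothing is read from its counts about the members. The cause of these shifts was not tested. Leaving out each array in turn gave 1 to 2 members lower in 129 (1 without HFD liver 3), 1 to 2 in B6J, 2 to 4 in B6N (4 without 129 control 6 or B6N control 6), 5 to 10 in C3H (5 without C3H HFD liver 3), 8 to 13 in the mean effect, 0 to 0 higher in every contrast and 0 to 1 by the F test. Of all genes, 22 to 39 fell in 129, 22 to 36 in B6J, 45 to 62 in B6N, 46 to 95 in C3H and 206 to 250 in the mean. Without 129 control 6, the median change of the members in 129 was -0.13 in place of -0.08, and 12 members fell in the mean effect. Probe sets of Ass1 and Ahcy, shared with other genes, were not used.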

Other observations

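Within groups, the members rose and fell together from liver to liver. Over the 595 pairs of members, the median correlation of deviations from the group mean was 0.653 in 129 (n = 15 arrays), 0.317 in the B6 strains (n = 31) and 0.528 in C3H (n = 26), and 87.6%, 77.6% and 86.2% of pairs were positive. These points share arrays and normalisation, so the correlations are a description. The same values for all genes or equally bright genes are not given, so the correlations are not shown to be particular to the members. In 129, control 6 deviated by -0.498 on average over the members, and its part in the 129 value was not tested. In 129, Nags, Hpd and Got1 had the highest correlations with the members' mean (0.967, 0.954 and 0.95), and that of Ddc was 0.229. Ddc also had a positive correlation with the acinar transcripts in 129 (0.604), against -0.0274 in the B6 strains and -0.212 in C3H. In C3H 33 of 35 members were negatively correlated with the acinar transcripts, with Cps1 the lowest (-0.554). The share of all genes with a negative correlation is not given. As the members also moved together in C3H, the count is not shown to be particular to them. Single livers were low across many members. C3H HFD liver 6 was the lowest of its group for 22 of 35 members and B6N control 6 for 27 of 35, against 20.4% and 21.1% of all genes.

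The most variable members within groups were Got1 and Gldc (residual SD 0.446 and 0.443), which act on aspartate and glycine, and the least variable were Hpd and Gnmt (0.146 and 0.15).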
